A study of Mus musculus with 14 samples.

Results

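The MAR1 antibody was compared with an isotype control antibody in skin inflamed by MC903 (calcipotriol, a vitamin D analogue whose application to skin causes an itchy dermatitis). The comparison rests on 6 of the 14 RNA sequencing libraries of the study, 3 from mice given MAR1 and 3 from mice given the isotype control. They were taken by their group labels and not by any measured value, and all 35327 genes of the table were examined. All 6 mice were C57BL/6J without an engineered allele, labelled female and 6 weeks old. Each received 20 µg of antibody in 100 µL into the peritoneum every other day, with 3 injections before MC903 and more during it. MC903 (1 nmol in 100 µL) went onto shaved neck skin daily for 6 days in both groups, so the dermatitis treatment is shared by both, and by design only the antibody differs. Each library came from 1 mouse, from a frozen piece of neck skin cut into about 20 sections of 20 µm, and holds polyadenylated RNA of the whole tissue. The other 8 libraries were 3 from MC903-treated Pdgfra-Cre Il4ra fl/fl mice (labelled cKO, in which Cre under Pdgfra control acts in fibroblasts and other Pdgfra-expressing cells), 3 from MC903-treated Il4ra fl/fl mice and 2 from untreated wild-type skin. They entered the fit only to estimate the spread between libraries.

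MAR1 binds the alpha chain of FcεRI, the high-affinity receptor for IgE that sits on basophils and mast cells. It is widely used to deplete basophils, rare blood granulocytes that enter inflamed skin and make interleukin-4. The antibody can also bind mast cells, which carry the same receptor and live in the dermis, so it is not specific to basophils. Interleukin-4 and interleukin-13 act through the receptor chain encoded by Il4ra and the transcription factor STAT6 on keratinocytes, fibroblasts and macrophages, and the study's title concerns basophils and fibroblasts in such inflammation. In bulk tissue, fewer cells of a type and less RNA per cell cannot be told apart.

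The libraries of the 2 groups differed in depth and composition. The MAR1 libraries held 10582112, 8682442 and 5728994 counts (replicates 1, 2 and 3), and the isotype libraries 34889110, 35580225 and 34312366 counts. Olfactory and vomeronasal receptor genes, 1753 genes that serve smell and pheromone sensing in the nose and that skin is not known to express strongly, took 3.87, 7.54 and 9.36% of the counts in MAR1 libraries and 0.438, 0.269 and 0.4% in isotype libraries. This share averaged 6.92 ± 2.80% with MAR1 and 0.369 ± 0.0888% with isotype (SD, n = 3 each; exact permutation test, two-sided, p = 0.1, the smallest p that 3 against 3 allows). The 13 mitochondrially encoded protein genes took 0.344, 0.246 and 0.129% of the counts in MAR1 libraries, against 2.14, 2.33 and 2.12% in isotype libraries. Neither share overlapped between the groups, and within MAR1 the shallower the library, the larger was its receptor share. Uty, a gene of the Y chromosome, reached 443, 666 and 925 CPM (counts per 1e+06 counts of the scaled library) in the MAR1 libraries. It had 25.4, 13.3 and 23.7 CPM in the isotype libraries, although all mice are labelled female. Kdm5d, also Y-linked, had 22.8, 86 and 119 CPM with MAR1 and 5.66, 3.35 and 3.5 CPM with isotype. The Y-linked genes Eif2s3y and Sry had 0 CPM in all 6, and Ddx3y had at most 0.0235 CPM. Receptor share, depth and antibody cannot be told apart in this design, so each result is given beside the order of the MAR1 libraries by receptor share (replicate 1 lowest, replicate 3 highest).

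**Figure D1:**
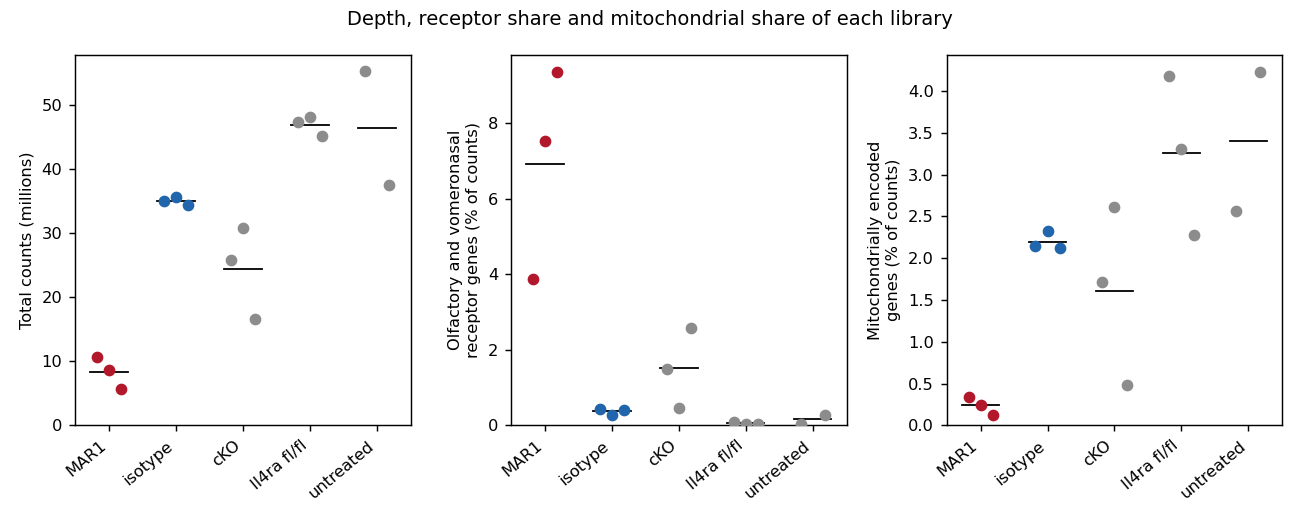
Total counts, receptor gene share and mitochondrial share (both in percent of counts) of each of the 14 libraries by group, with a bar at the group mean. The 3 MAR1 libraries hold the fewest counts, the largest receptor shares (3.87 to 9.36%) and the smallest mitochondrial shares (0.129 to 0.344%).

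The tissue was skin in both groups. Krt14, a keratin of basal keratinocytes, stood at 4824, 3955 and 2546 CPM with MAR1 and at 11880, 15410 and 13740 CPM with isotype. Col1a1, the main collagen chain of the dermis, had 339, 196 and 367 CPM with MAR1 and 474, 499 and 503 CPM with isotype. The eosinophil gene Epx was at 0 CPM in all 6, and the salivary gland gene Bpifa2 reached at most 0.108 CPM with MAR1 and 0.0469 CPM with isotype.

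Across all genes, the comparison asks what MAR1 changed in inflamed skin. All 14 libraries were fitted together with edgeR's quasi-likelihood test, and genes were called where the adjusted p (Benjamini-Hochberg) was under 0.05. Of 20939 genes tested, 7183 (34.3%) were called higher and 2982 (14.2%) lower with MAR1. Genes are called well expressed here when they averaged at least 10 CPM in the isotype libraries, before scaling. Of these 10258 genes, 2735 (26.7%) were higher and 2674 (26.1%) lower with MAR1, and their median log2 fold change was -0.04. The scaling factors were computed on these same genes, so a median near 0 and an even split were largely set in advance. When the genes were chosen by their mean over all 6 libraries, 4333 of 11310 were higher and 2390 lower, with a median of 0.33. With the log2 receptor share as a covariate, edgeR called 0 genes in either direction, with 1385 genes at an unadjusted p under 0.05. The receptor share does not overlap between the groups, so a loss of calls in this fit was largely set in advance. Without isotype replicate 2 the genes called higher among all tested numbered 4690, and with MAR1 replicate 1 as the only MAR1 library, assumed to vary like the other groups, 1109 well-expressed genes were higher and 846 lower. The split also depends on scaling, since scaling factors computed on all genes moved the median of all genes by -0.81 on the log2 scale and gave 1304 well-expressed genes higher and 4873 lower (21.1% of the calls higher). RLE factors moved it by -0.22 and gave 2219 higher and 3266 lower (40.5% higher), and library totals moved it by -0.62 and gave 1537 higher and 4307 lower (26.3% higher).

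The direction of change went with the level in isotype skin. Leaving out receptor genes, genes at up to 1 CPM with isotype had a median log2 fold change of 4.16, and 38.5% were called higher and 0.498% lower. Genes this low with isotype could pass the filter on low counts through other groups, MAR1 among them. The isotype level is also the denominator of the fold change, so the positive median of these genes was partly set in advance. Genes between 30 and 100 CPM had a median of -0.14, with 23.9% higher and 29.9% lower. Genes between 300 and 1000 CPM had a median of -0.61, with 10.5% higher and 38.5% lower. Among the 647 receptor genes tested, 507 were called higher and 1 lower, with a median log2 fold change of 5.11. Of the 76 receptor genes counted as well expressed, 73 were called higher.

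**Figure D2:**
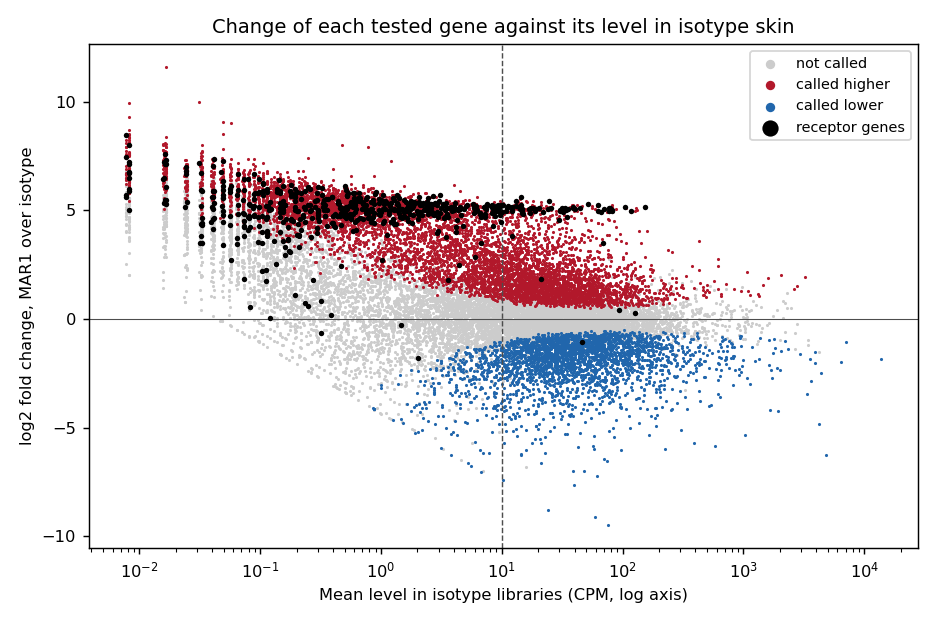
Log2 fold change of MAR1 over isotype against the mean level in isotype libraries (CPM, log axis) for the 19852 tested genes with counts in both groups, coloured by call, with receptor genes in black. The dashed line marks 10 CPM, and receptor genes form a band near a log2 fold change of 5.11 that forms the upper edge of the well-expressed genes.

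The chains of the receptor that MAR1 binds were lower in all 3 MAR1 libraries. Fcer1a, which encodes the alpha chain bound by MAR1, had 6.81, 2.55 and 0.253 CPM with MAR1 and 27.2, 27.1 and 19.9 CPM with isotype. The groups did not overlap, and the level fell within MAR1 as the receptor gene share grew. The log2 fold change of Fcer1a was -2.89 ± 1.14 (SE), and its adjusted p of 0.051 narrowly missed the threshold. Fcer1a passed with the 3 other scalings (adjusted p 0.026 to 0.042), DESeq2 (0.01), the 6 libraries alone (0.0075), a stricter filter (0.047), equal depth (0.015) and without MAR1 replicate 1 (0.035). It missed the threshold without any other single library (0.083 to 0.13) and with no filter (0.072). With the receptor share as a covariate its log2 fold change took the opposite sign, at 1.63 (adjusted p = 0.9). Ms4a2, the beta chain that amplifies the signal, had 4.43, 2.85 and 2.53 CPM with MAR1 and 9.65, 9.08 and 8.21 CPM with isotype, a log2 fold change of -1.45 ± 0.49 (adjusted p = 0.028). Its call held in 1 of the 6 fits that each left out 1 library, the one without MAR1 replicate 1 (0.025), and reached 0.076 without MAR1 replicate 2. Fcer1g, the gamma chain shared with other Fc receptors of myeloid cells, had 12.1, 7.34 and 6.84 CPM with MAR1 and 48.5, 32.4 and 49.2 CPM with isotype (log2 fold change -2.30 ± 0.47, adjusted p = 0.0022). That call held in all 6 fits that left out 1 library.

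Fcer1a and Ms4a2 are both known targets of GATA factors in basophils and mast cells. The 200 bases before the annotated start of each gene are printed to show the letters in question, with matches to the letters AGATAA, to AGATAG, to TGATAA or to TGATAG on either strand in capitals (RefSeq, GRCm38.p6, both genes on the minus strand, 5′ to 3′).
Fcer1a, chr1:173227230-173227429: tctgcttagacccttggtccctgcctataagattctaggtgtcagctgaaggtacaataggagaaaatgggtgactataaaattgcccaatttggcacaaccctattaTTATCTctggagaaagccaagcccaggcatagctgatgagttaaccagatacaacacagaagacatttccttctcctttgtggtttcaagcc
Ms4a2, chr19:11623720-11623919: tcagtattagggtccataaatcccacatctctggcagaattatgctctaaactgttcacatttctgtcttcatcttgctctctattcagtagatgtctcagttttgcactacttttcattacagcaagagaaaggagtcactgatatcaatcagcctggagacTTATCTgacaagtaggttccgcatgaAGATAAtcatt
The first stretch holds 1 match and the second 2, and 21.4% of 32851 promoter stretches of this length hold at least 1. A match describes letters and is not a binding site. Gata2, the GATA factor of both cell types, had 60.7, 34.8 and 30.1 CPM with MAR1 and 22.4, 26.3 and 17.5 CPM with isotype, a log2 fold change of 0.93 ± 0.40 that did not pass (adjusted p = 0.071).

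Of the basophil genes, some fell and others rose. Among 10 well-expressed members of the 14 listed, 2 were called higher and 4 lower (median log2 fold change -1.01), against 26.7 and 26.1% of all well-expressed genes. Mcpt8, a protease made by basophils and a common marker of them, had 22.7, 46.5 and 46.1 CPM with MAR1 and 5.73, 3.59 and 3.36 CPM with isotype. It was called higher (log2 fold change 3.18 ± 0.84, adjusted p = 0.0088), although it was not well expressed with isotype and stood below the 95th percentile of the receptor genes in each MAR1 library (82.0, 157 and 202 CPM before scaling). Cd200r3, which activates basophils and mast cells from their surface, had 258, 420 and 566 CPM with MAR1 and 17.2, 10.8 and 18.6 CPM with isotype (log2 fold change 4.74 ± 0.70, adjusted p = 0.00047). Its MAR1 values followed the order of the receptor gene share. Il3ra, the receptor for the basophil growth factor interleukin-3, was also higher with 89.8, 54.4 and 48.4 CPM with MAR1 and 19.1, 14.6 and 15.5 CPM with isotype (log2 fold change 1.97 ± 0.45, adjusted p = 0.0041), in the opposite order. Il4 itself was low at 2.27, 2.10 and 1.27 CPM with MAR1 and 1.10, 0.633 and 0.247 CPM with isotype and was not called (log2 fold change 1.51 ± 0.89, adjusted p = 0.17). Prss34, another basophil protease, stood at 0.432, 0 and 0 CPM with MAR1 and 0.414, 0.141 and 0.197 CPM with isotype and was not called. Cyp11a1, Il18rap and Il1rl1 were not called either, with log2 fold changes of -1.04, 0.56 and 0.14.

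Several genes that basophils share with mast cells were lower, and the chymases of skin mast cells were not called. Of 11 well-expressed mast cell genes 1 was higher and 5 lower (median log2 fold change -0.89), against 26.7 and 26.1% of all well-expressed genes, and with the 3 other scalings 0 were higher and 6 to 7 lower. Cpa3, carboxypeptidase A3 of mast cell granules, had 31.4, 20.7 and 15.2 CPM with MAR1 and 188, 159 and 147 CPM with isotype (log2 fold change -2.87 ± 0.49, adjusted p = 0.00086), a call that held in all 6 fits that left out 1 library. Hdc, the enzyme that makes histamine, had 28.9, 28.9 and 16.5 CPM with MAR1 and 79.9, 67.2 and 72.9 CPM with isotype (log2 fold change -1.56 ± 0.54, adjusted p = 0.031), and missed the threshold in each of those 6 fits (0.053 to 0.093). Itga2 behaved likewise (log2 fold change -0.98 ± 0.36, adjusted p = 0.038, 0.057 to 0.13 without 1 library). Tpsb2, the main tryptase of mouse mast cells, had 119, 87.1 and 64.8 CPM with MAR1 and 237, 214 and 243 CPM with isotype (log2 fold change -1.35 ± 0.43, adjusted p = 0.021), and passed in 2 of the 6 fits, those without MAR1 replicate 1 (0.023) or isotype replicate 2 (0.044). Its close copy Tpsab1 fell to 0.324, 0 and 1.27 CPM with MAR1, against 17.4, 12.3 and 13.1 CPM with isotype, and reads could be split between both copies. Mcpt4 and Cma1, the chymases of connective tissue mast cells, had 287, 265 and 209 CPM and 381, 204 and 174 CPM with MAR1. With isotype, Mcpt4 had 301, 190 and 200 CPM and Cma1 240, 165 and 209 CPM, so both overlapped (adjusted p = 0.75 and 0.49). Kit, the stem cell factor receptor of mast cells and melanocytes, was called higher (65.9, 58.8 and 64.8 CPM with MAR1, 33.4, 34.9 and 29.3 CPM with isotype, log2 fold change 0.96 ± 0.33, adjusted p = 0.03) but missed the threshold in all 6 fits without 1 library (0.052 to 0.097) and with the other 3 scalings.

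**Figure D3:**
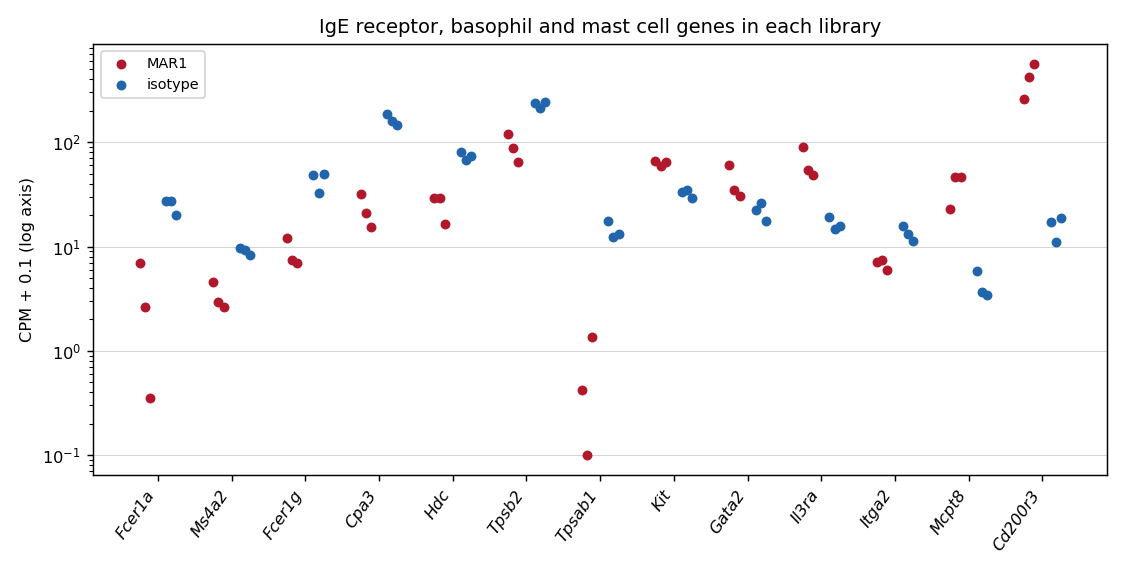
CPM plus 0.1 (log axis) of IgE receptor, basophil and mast cell genes in each MAR1 and each isotype library, replicates 1 to 3 from left to right within a group. Fcer1a, Ms4a2, Fcer1g and Cpa3 lie below isotype in all MAR1 libraries, while Mcpt8 and Cd200r3 lie above.

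Well-expressed type 2 cytokine signalling genes were lower or did not pass. Of 19 well-expressed members of 25 listed, 0 were called higher and 8 lower (median -0.62), against 26.7 and 26.1% of all well-expressed genes. The 8 were Il4ra, Stat6, Jak1, Socs3, Crlf2, Tslp, Arg1 and Chil3. Il4ra, the receptor chain shared by interleukin-4 and interleukin-13, had 57.6, 34.6 and 15.2 CPM with MAR1 and 167, 145 and 163 CPM with isotype (log2 fold change -2.14 ± 0.54, adjusted p = 0.0068). Jak1, the kinase bound to it, had 39.6, 41.5 and 34.7 CPM with MAR1 and 107, 126 and 111 CPM with isotype (log2 fold change -1.57 ± 0.32, adjusted p = 0.0022). Stat6 had 35.9, 37.3 and 29.1 CPM with MAR1 and 76.7, 91.1 and 79.8 CPM with isotype (log2 fold change -1.27 ± 0.22, adjusted p = 0.00087). None of these 3 genes overlapped between groups, and the 3 MAR1 libraries were close to each other for Stat6 and Jak1.

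The other members of that list that fell were cytokine receptors and induced genes. Crlf2, the receptor for TSLP, fell to 1.30, 0.3 and 0 CPM with MAR1, against 19.6, 16.2 and 22.2 CPM with isotype (log2 fold change -4.94 ± 0.83, adjusted p = 0.00079). Arg1, arginase of alternatively activated macrophages, had 7.46, 5.25 and 1.77 CPM with MAR1 and 159, 157 and 94.4 CPM with isotype (log2 fold change -4.78 ± 1.03, adjusted p = 0.0031). Chil3, a lectin induced by interleukin-4 in macrophages, had 4.21, 3.15 and 0.760 CPM with MAR1 and 30.4, 17.7 and 35.8 CPM with isotype (adjusted p = 0.00091). Tslp, the keratinocyte cytokine that MC903 induces, was spread over 16.4, 158 and 81.0 CPM with MAR1 and 490, 224 and 253 CPM with isotype, and its call (adjusted p = 0.043) held in 1 of the 6 fits that left out 1 library, that without MAR1 replicate 2 (0.021), and reached 0.14 without isotype replicate 1. Il33, Ccl11 and Postn were not called (adjusted p = 0.66, 0.81 and 0.74), and Il13 was at most 0.108 CPM with MAR1 and 0.0703 CPM with isotype. Outside the well-expressed genes, the interleukin-4 target Retnla was called higher, with 293, 187 and 123 CPM with MAR1 and 10.4, 3.73 and 7.43 CPM with isotype (log2 fold change 4.81 ± 1.26, adjusted p = 0.0086). Ccl24, an eosinophil-attracting chemokine, was also higher with 74.1, 46.3 and 23.3 CPM with MAR1 and 2.58, 0.891 and 3.95 CPM with isotype (adjusted p = 0.002). Both were highest in the MAR1 library with the lowest receptor share, so induced genes of macrophages were found in both directions.

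Chemokines and cytokines that dermal fibroblasts can make were called in both directions. Of 12 well-expressed members of 17, 4 were higher and 4 lower, near the 26.7 and 26.1% of all well-expressed genes, and with scaling on all genes or by totals 1 was higher and 4 lower. The list had a median log2 fold change of 0.63 that turned to -0.14 when scaling used all genes. Ccl8, a monocyte chemokine, had 1211, 628 and 355 CPM with MAR1 and 149, 61.4 and 90.8 CPM with isotype (log2 fold change 2.87 ± 0.71, adjusted p = 0.0061). Ccl7 and Ccl2, which act on the same monocytes, had 271, 116 and 108 CPM and 130, 48.3 and 64.1 CPM with MAR1. With isotype, Ccl7 had 36.3, 13.9 and 35.7 CPM and Ccl2 26.6, 11 and 31.1 CPM (adjusted p = 0.019 and 0.015). All 3 were highest in MAR1 replicate 1, opposite to the receptor share. Scaling on all genes or by totals ended the calls of Ccl7 (0.063 and 0.056) and Ccl2 (0.097 and 0.076) but not of Ccl8 (0.019 and 0.015). Ccl7 and Ccl2 missed the threshold without MAR1 replicate 1 (0.066 and 0.071) and without isotype replicate 2 (0.076 and 0.063), while Ccl8 passed in all 6 fits that left out 1 library. Cxcl13, a B cell chemokine, had 9.51, 9.89 and 2.53 CPM with MAR1 and 75.1, 74.8 and 78.5 CPM with isotype (log2 fold change -3.35 ± 0.63, adjusted p = 0.0014). Cxcl14, a chemokine made in resting skin, had 23.1, 26.7 and 17.0 CPM with MAR1 and 127, 55.1 and 162 CPM with isotype (log2 fold change -2.36 ± 0.42, adjusted p = 0.0011). Tnfsf11, the cytokine RANKL, was lower as well (log2 fold change -2.48 ± 0.65, adjusted p = 0.0084), while Cxcl12 and Ccl11 were not called (adjusted p = 0.29 and 0.81).

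**Figure D4:**
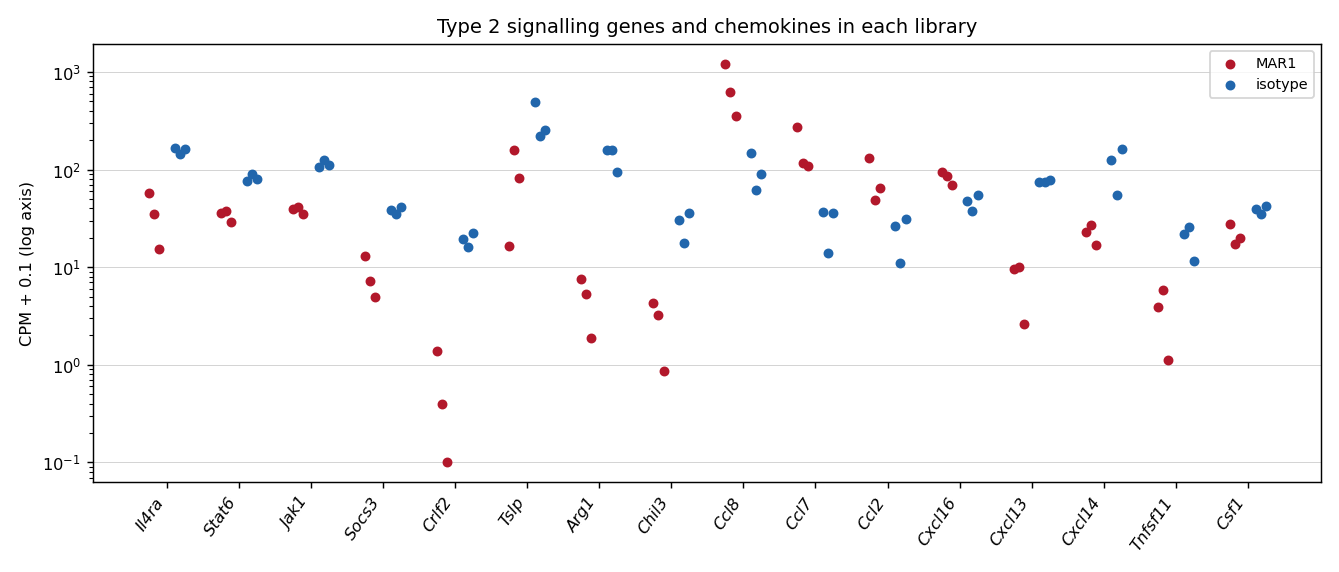
CPM plus 0.1 (log axis) of type 2 signalling genes and chemokines in each MAR1 and each isotype library, replicates 1 to 3 from left to right within a group. Il4ra, Stat6, Jak1, Crlf2, Arg1, Cxcl13 and Cxcl14 lie below isotype in all MAR1 libraries, and Ccl8, Ccl7 and Ccl2 lie above.

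Macrophage and dendritic cell genes were mostly not called. Of 15 well-expressed members of 19, 1 was higher and 5 lower (median log2 fold change -0.38), against 26.7 and 26.1% of all well-expressed genes. Cd68, a lysosomal protein of macrophages, fell to 4.21, 1.2 and 1.52 CPM with MAR1, against 31.3, 30.1 and 47.2 CPM with isotype (log2 fold change -3.91 ± 0.66, adjusted p = 0.00078). Csf1r, the receptor for their growth factor, had 57.8, 47.1 and 42.8 CPM with MAR1 and 108, 106 and 114 CPM with isotype (log2 fold change -1.15 ± 0.28, adjusted p = 0.0059), and Adgre1, which encodes F4/80, was not called (46.6, 28.2 and 15.5 CPM with MAR1, 20.6, 17.5 and 24.9 CPM with isotype). The 3 chains of complement C1q, which form 1 molecule, moved apart. C1qb had 27.9, 28.6 and 12.4 CPM with MAR1 and 214, 156 and 224 CPM with isotype (log2 fold change -3.10 ± 0.43, adjusted p = 0.00039). C1qa had 1090, 544 and 391 CPM with MAR1 and 272, 200 and 271 CPM with isotype (log2 fold change 1.45 ± 0.40, adjusted p = 0.011), a call that was lost with scaling on all genes (0.16) or by totals (0.09), and without MAR1 replicate 1 (0.055) or isotype replicate 2 (0.051). C1qc overlapped between the groups (log2 fold change -0.56 ± 0.32, adjusted p = 0.16).

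Most listed T cell genes and all 10 listed B cell genes were below the level of well-expressed genes with isotype. Of 18 T cell genes tested 6 were called higher and 0 lower, near the 34.3% of all tested genes called higher, Cd3e having 53.3, 93.4 and 181 CPM with MAR1 and 6.14, 2.37 and 4.32 CPM with isotype. The constant-region gene Trac had 11.1, 12.1 and 11.7 CPM with MAR1 and 1.80, 1.24 and 1.78 CPM with isotype and was not called (adjusted p = 0.062). Of 10 B cell genes tested 3 were called higher, again near that share, Cd79a reaching 32.9, 76.9 and 156 CPM with MAR1 and 2.66, 0.750 and 1.83 CPM with isotype, a call that held in 2 of the 6 fits that left out 1 library, those without MAR1 replicate 1 (0.023) or 2 (0.033). Their summed share of counts ran from 0.00992 to 0.0239% with MAR1 and from 0.00116 to 0.00167% with isotype. For eosinophils and neutrophils, Epx stood at 0 and Ly6g at most at 1.01 CPM with MAR1 and 0.345 CPM with isotype. Of 4 well-expressed members of the 17 listed, 2 were called higher and 1 lower, against 26.7 and 26.1% of all well-expressed genes. Mmp9 was the 1 called lower, with 8.32, 4.9 and 4.3 CPM with MAR1 and 74.3, 141 and 78 CPM with isotype. Its log2 fold change was -4.04 ± 0.49 (adjusted p = 0.00036), and the call held in all 6 fits that left out 1 library. Cxcr2, a chemokine receptor of neutrophils, rose to 358, 678 and 925 CPM with MAR1, against 29.1, 19.2 and 26.2 CPM with isotype, in the order of the receptor share. S100a9, a calcium-binding protein of neutrophils and stressed keratinocytes, overlapped between the groups (130, 96.4 and 30.6 CPM with MAR1, 43.7, 16.4 and 14.7 CPM with isotype), and its call (adjusted p = 0.029) was lost with the 3 other scalings (0.051 to 0.17) and held in 2 of the 6 fits that left out 1 library, those without MAR1 replicate 3 (0.017) or isotype replicate 1 (0.016). What part these cells have in the results above was not tested.

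In the epidermis, more alarm and differentiation genes were called lower than higher. Of 25 well-expressed keratinocyte stress genes among 31 listed, 3 were higher and 11 lower (median log2 fold change -1.52). The shares of all well-expressed genes were 26.7% higher and 26.1% lower. Krt6b, a keratin induced by injury and inflammation, had 197, 177 and 66.9 CPM with MAR1 and 3661, 5482 and 3522 CPM with isotype (log2 fold change -4.84 ± 1.42, adjusted p = 0.015, and 0.055 without MAR1 replicate 3). Il36b, an epidermal cytokine of the interleukin-1 family, had 5.73, 11.8 and 3.8 CPM with MAR1 and 64.6, 84.0 and 59.4 CPM with isotype (log2 fold change -3.27 ± 0.86, adjusted p = 0.0084). Lcn2, an antimicrobial iron-binding protein, fell to 8.75, 9.44 and 6.58 CPM with MAR1, against 67.6, 46.9 and 70.6 CPM with isotype (adjusted p = 0.0024). Serpinb3b, a protease inhibitor of inflamed epidermis, fell as well (log2 fold change -4.03 ± 0.76, adjusted p = 0.0015). Il19, a keratinocyte cytokine of the interleukin-10 family, rose instead, with 133, 87.2 and 36.5 CPM with MAR1 and 28.3, 6.36 and 4.96 CPM with isotype (log2 fold change 2.70 ± 0.66, adjusted p = 0.0056), opposite to the receptor order.

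Basal and spinous genes showed 0 higher and 10 lower calls among 26 well-expressed members (median log2 fold change -0.93). The shares of all well-expressed genes were 26.7% higher and 26.1% lower. Krt5, the partner of Krt14 in basal cells, had 370, 514 and 303 CPM with MAR1 and 1592, 2196 and 2273 CPM with isotype (log2 fold change -2.35 ± 0.56, adjusted p = 0.005). Jup, the junction protein plakoglobin, had 29.6, 37.3 and 37.2 CPM with MAR1 and 456, 529 and 645 CPM with isotype (log2 fold change -3.97 ± 0.65, adjusted p = 0.00071). Col17a1 and the integrin chains Itgb1 and Itga3, which fix basal cells to the basement membrane, were lower too (log2 fold changes -2.73, -1.88 and -3.58, adjusted p = 0.00086, 0.0013 and 0.0022). Krt10, the suprabasal keratin, was not called at 1152, 1016 and 945 CPM with MAR1 and 501, 4180 and 3306 CPM with isotype, the isotype libraries themselves being far apart.

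Barrier genes had 2 higher and 14 lower calls among 35 well-expressed members (median log2 fold change -0.95), against 26.7 and 26.1% of all well-expressed genes. Asprv1, a protease that processes filaggrin, had 100.1, 135 and 78.0 CPM with MAR1 and 1456, 2306 and 2055 CPM with isotype (log2 fold change -4.21 ± 0.72, adjusted p = 0.00086). Tchh, trichohyalin, had 270, 389 and 343 CPM with MAR1 and 1803, 1604 and 1616 CPM with isotype (log2 fold change -2.33 ± 0.39, adjusted p = 0.00079). Alox12b and Cdsn, needed for the lipid envelope and for cell adhesion in the cornified layer, were lower (log2 fold changes -3.85 and -3.60, adjusted p = 0.0039 and 0.005). Loricrin, the main envelope protein, was not called (log2 fold change -0.31 ± 0.80, adjusted p = 0.76). The 2 higher members, Lce1m and Lce3b, belong to a cluster of near-identical genes whose reads can be split, and Lce3b (adjusted p = 0.046) missed the threshold with the 3 other scalings (0.072 to 0.17) and in 5 of the 6 fits that left out 1 library.

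Cyp24a1, the vitamin D-degrading enzyme that vitamin D analogues such as MC903 induce, was lower with MAR1. It had 424, 606 and 482 CPM with MAR1 and 3852, 3770 and 3142 CPM with isotype, with no overlap (log2 fold change -2.83 ± 0.68, adjusted p = 0.0053). In untreated skin it was at most 0.0227 CPM, so all 6 libraries carried it at levels far above that. Of 8 well-expressed vitamin D genes, 0 were higher and 4 lower, against 26.7 and 26.1% of all well-expressed genes. Vdr, the vitamin D receptor, was not called (47.7, 49.3 and 49.4 CPM with MAR1, 57.6, 58.7 and 80.2 CPM with isotype). Cd14 and Thbd were the other 2 called in all 6 fits that left out 1 library (adjusted p = 0.0015 and 0.01). Rxra, the partner of Vdr, was called at an adjusted p of 0.036 and missed the threshold in each of those fits (0.062 to 0.12).

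Of 23 well-expressed dermal fibroblast genes 3 were higher and 6 lower (median log2 fold change -0.65), and of 32 matrix genes 2 were higher and 14 lower (median -0.59). Among all well-expressed genes 26.7% were higher and 26.1% lower, so the share of fibroblast genes called lower was that of all genes. Col3a1, a fibrillar collagen, had 180, 119 and 166 CPM with MAR1 and 1156, 747 and 837 CPM with isotype (log2 fold change -2.56 ± 0.68, adjusted p = 0.0087), whereas Col1a1 was not called (-0.71 ± 0.66, adjusted p = 0.38). Col4a2, of the basement membrane, had 14.7, 10.04 and 7.60 CPM with MAR1 and 175, 213 and 174 CPM with isotype (log2 fold change -4.11 ± 0.63, adjusted p = 0.00053). Mmp2, a gelatinase of fibroblasts, had 30.7, 42 and 24.6 CPM with MAR1 and 544, 533 and 472 CPM with isotype (log2 fold change -3.99 ± 0.56, adjusted p = 0.00039). The collagen cross-linker Lox and the matrix protein Thbs2 were lower in the same way (log2 fold changes -2.96 and -2.12, adjusted p = 0.00056 and 0.00088). Pi16 and Cd34, which mark adventitial fibroblasts, were higher (log2 fold changes 2.99 and 2.68) in the order of the receptor share. Timp1, an inhibitor of matrix proteases, rose against that order, with 293, 130 and 71.9 CPM with MAR1 and 40.4, 14.9 and 34.3 CPM with isotype (log2 fold change 2.47 ± 0.51, adjusted p = 0.0022).

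Vessel, fat, muscle and hair follicle genes were called less often than all well-expressed genes, of which 26.7% were higher and 26.1% lower. Of 22 well-expressed endothelial and mural genes 3 were higher and 4 lower, among them Lyve1 of lymphatic vessels (3.35, 0.749 and 0.760 CPM with MAR1, 35.8, 26.9 and 35.3 CPM with isotype, adjusted p = 0.00076). Pecam1, an adhesion molecule of endothelium, rose to 1142, 1618 and 2130 CPM with MAR1, against 145, 137 and 144 CPM with isotype, in the receptor order, while the endothelial genes Cdh5 and Kdr were not called (log2 fold changes -0.58 and -0.81). Of 12 adipocyte genes 1 was higher and 3 lower, with a median log2 fold change of 0.41 that turned negative with scaling on all genes (-0.36) or by totals (-0.18). Skeletal muscle genes had 1 higher and 0 lower calls among 16. Their summed share was 0.687, 0.250 and 0.122% with MAR1 and 0.260, 0.198 and 0.248% with isotype, the largest in MAR1 replicate 1. In that library single genes moved apart, Tnnc2 having 990 CPM and Atp2a1 65.4 CPM. With isotype Tnnc2 had 60.3 to 91.7 CPM and Atp2a1 308 to 363 CPM, and neither gene was called. Of 9 melanocyte and Schwann cell genes 3 were higher and 3 lower, Dct (log2 fold change 2.60) and Tyrp1 (-3.95), both of the melanin pathway, moving apart. Hair follicle and gland genes had 2 higher and 2 lower calls among 11.

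Interferon response genes called in either direction were higher. Of 8 well-expressed members of 23, 6 were higher and 0 lower (median log2 fold change 2.19), against 26.7 and 26.1% of all well-expressed genes. Of these 6 genes, 4 followed the receptor order. Irf1, a transcription factor of the interferon response, had 80.7, 79.0 and 101 CPM with MAR1 and 15.9, 13.3 and 17.1 CPM with isotype (log2 fold change 2.49 ± 0.62, adjusted p = 0.0061). Gbp2, induced by interferons, rose by 2.25 ± 0.55 on the log2 scale (adjusted p = 0.006), and Bst2, likewise induced, by 2.74 ± 0.63 (adjusted p = 0.0043). Gbp5 rose to 188, 637 and 844 CPM with MAR1, against 24.6, 10.9 and 17.9 CPM with isotype, in the receptor order and past the receptor genes' 95th percentile. With scaling on all genes 4 of the 8 were higher and 1 lower.

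Cell division genes had 5 higher and 4 lower calls among 22 well-expressed members (median log2 fold change -0.11), against 26.7 and 26.1% of all well-expressed genes. With scaling on all genes 2 were higher and 10 lower, and by totals 3 were higher and 8 lower. Tyms, which makes thymidylate, rose to 433, 1248 and 1743 CPM with MAR1, against 58.7, 40.3 and 50.1 CPM with isotype, in the receptor order, whereas the mitotic kinesin Kif20a had 2.59, 3.30 and 1.27 CPM with MAR1 and 11.1, 11.4 and 10.9 CPM with isotype (log2 fold change -2.20 ± 0.63, adjusted p = 0.012). Stress response genes had 2 higher and 12 lower calls among 26 (median -0.89). Xbp1, a regulator of the unfolded protein response, had 22.4, 19.5 and 7.85 CPM with MAR1 and 215, 189 and 206 CPM with isotype (log2 fold change -3.60 ± 0.53, adjusted p = 0.00046). Hmox1 and Txnrd1, of the oxidative stress response, and the hypoxia-induced Vegfa were lower (log2 fold changes -2.20, -2.21 and -1.97). Hsp90b1, a chaperone of the endoplasmic reticulum, was higher at 1596, 998 and 780.1 CPM with MAR1 and 544, 436 and 465 CPM with isotype (adjusted p = 0.0057), a call lost with scaling on all genes (0.24) and by totals (0.11). Sterol synthesis genes had 4 higher and 6 lower calls among 19 (median -0.21), near the shares of all well-expressed genes, and 0 higher and 9 lower with scaling on all genes or by totals. Nsdhl was lower, falling to 0.432, 0.450 and 0.760 CPM with MAR1, against 26.6, 21.3 and 20.0 CPM with isotype, and Insig1, which restrains the pathway, was higher, rising to 139, 159 and 156 CPM with MAR1, against 62.0, 70.8 and 65.4 CPM with isotype. The rise of Insig1 passed with RLE factors (0.0033) and not with scaling on all genes (0.17) or by totals (0.057).

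Genes of single complexes moved apart within these libraries. Of the 13 mitochondrially encoded genes, which are transcribed together from 1 circular genome, 0 were higher and 8 lower, against 26.7 and 26.1% of all well-expressed genes. Their median log2 fold change was -1.53, with a range of -6.28 to 0.97. mt-Co1, a catalytic subunit of cytochrome oxidase, fell to 88.0, 53.7 and 44.8 CPM with MAR1, against 4280, 5786 and 4472 CPM with isotype (log2 fold change -6.28 ± 0.96, adjusted p = 0.00052). mt-Nd5, of complex I, overlapped at 329, 223 and 137 CPM with MAR1 and 242, 298 and 299 CPM with isotype (log2 fold change -0.28 ± 0.36, adjusted p = 0.53). mt-Atp8 overlapped as well, at 182, 94.7 and 50.9 CPM with MAR1 and 47.8, 49.5 and 70.3 CPM with isotype (log2 fold change 0.97 ± 0.44, adjusted p = 0.079), and passed without MAR1 replicate 3 (0.031). Between a MAR1 and an isotype library, the log2 ratios of these 13 genes had an SD of 1.96 to 2.26 over the 9 pairs, against 0.40 to 0.47 between MAR1 libraries and 0.20 to 0.25 between isotype libraries.

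Nuclear respiratory chain genes had 9 higher and 8 lower calls among 32, near the 26.7 and 26.1% of all well-expressed genes. Their median log2 fold change of 0.44 turned negative with scaling on all genes (-0.33) or by totals (-0.14). With either of these scalings 4 were higher and 10 lower. Ndufa2, of complex I, had 810.1, 536 and 463 CPM with MAR1 and 103, 63.5 and 69.8 CPM with isotype (log2 fold change 2.93 ± 0.59, adjusted p = 0.002). Uqcrc2, of complex III, had 2.70, 14.2 and 13.7 CPM with MAR1 and 102, 114 and 108 CPM with isotype (log2 fold change -3.43 ± 0.67, adjusted p = 0.0018). Atp5f1b, the catalytic beta subunit of ATP synthase, had 184, 197 and 129 CPM with MAR1 and 888, 848 and 819 CPM with isotype (log2 fold change -2.33 ± 0.37, adjusted p = 6e-04), and its small partner Atp5f1e had 957, 559 and 492 CPM with MAR1 and 152, 92.7 and 105 CPM with isotype (log2 fold change 2.52 ± 0.59, adjusted p = 0.0046).

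Ribosomal protein genes, whose products are made in equal amounts, had 23 higher and 15 lower calls among 82. These were near the 26.7% higher and below the 26.1% lower of all well-expressed genes. Their median log2 fold change of 0.13 turned negative with each of the 3 other scalings (-0.64, -0.09 and -0.45). The balance of calls turned over as well, to 8 higher and 38 lower with scaling on all genes and 9 higher and 36 lower by totals. Rpl37a had 6210, 2949 and 3314 CPM with MAR1 and 715, 558 and 569 CPM with isotype (log2 fold change 2.76 ± 0.59, adjusted p = 0.0028). Rpl4 had 453, 385 and 288 CPM with MAR1 and 1627, 1696 and 1585 CPM with isotype (log2 fold change -2.12 ± 0.35, adjusted p = 0.00073). The SD of their log2 ratios was 1.04 to 1.37 between a MAR1 and an isotype library, 0.26 to 0.37 between MAR1 libraries and 0.15 to 0.17 between isotype libraries. The 23 higher members had a median coding length of 357 bases (138 to 885), and the 14 of 15 lower members with an annotated coding length 555 bases (375 to 1257). The 43 of 44 uncalled members with an annotated coding length had a median of 507 bases (153 to 1209). Ribosomal pseudogenes share reads with their parent genes, so single members are uncertain.

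**Figure D5:**
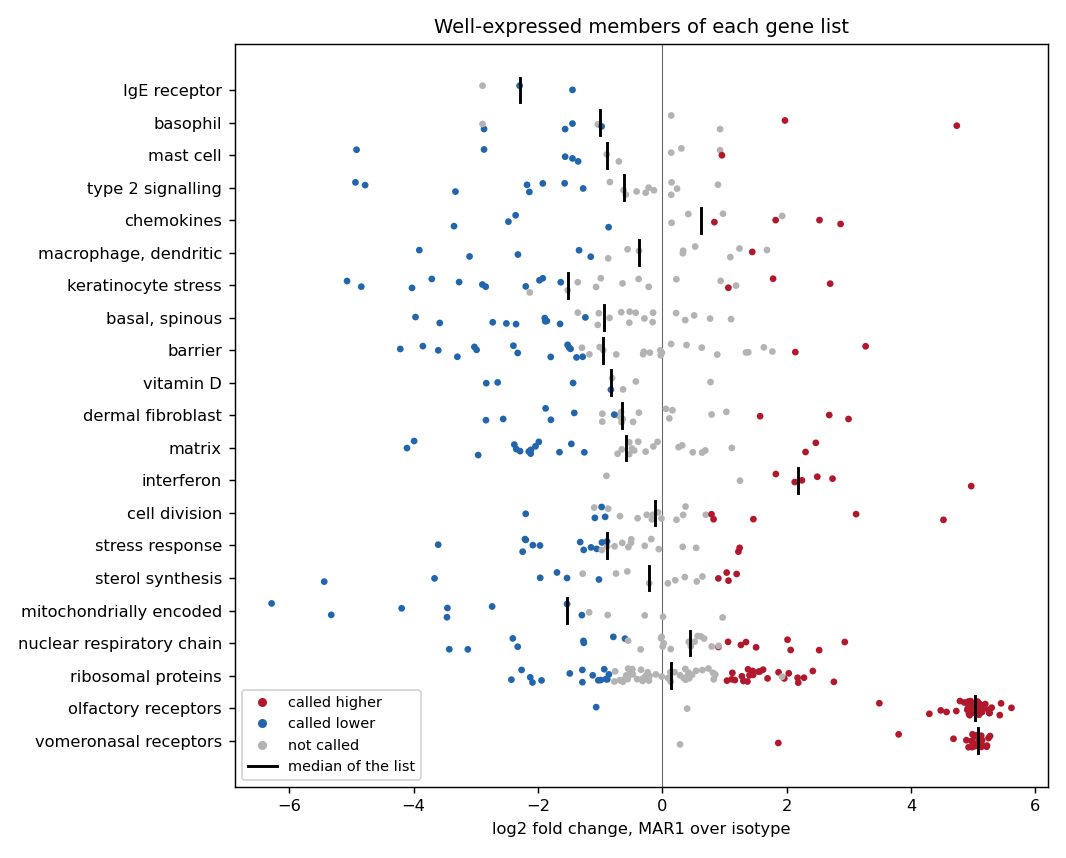
Log2 fold change of MAR1 over isotype for the well-expressed members of 21 gene lists, coloured by call, with a bar at the median of each list. Olfactory and vomeronasal receptors cluster near 5.03 and 5.08, the IgE receptor, keratinocyte and mitochondrially encoded lists have negative medians, and members of single complexes spread to both sides of 0.

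Of 20 housekeeping genes, 3 were called higher and 6 lower (median log2 fold change -0.45), against 26.7 and 26.1% of all well-expressed genes, and with scaling on all genes 1 was higher and 13 lower. Gapdh had 126, 137 and 226 CPM with MAR1 and 1066, 1041 and 1083 CPM with isotype (log2 fold change -2.71 ± 0.65, adjusted p = 0.0054), and Tbp, the TATA-binding protein, had 36.4, 60.7 and 73.2 CPM with MAR1 and 19.5, 15.8 and 17.8 CPM with isotype (log2 fold change 1.68 ± 0.33, adjusted p = 0.0017), directions that the 3 other scalings kept. Actb, cytoplasmic actin, was not called (log2 fold change 0.45 ± 0.39, adjusted p = 0.35). Proteasome and translation factors had 4 higher and 9 lower calls among 23, Psmc2 (2.32) and Psmd1 (-2.04), both of the proteasome's regulatory particle, moving apart. Splicing factors had 5 higher and 3 lower calls among 23, and with scaling on all genes 0 higher and 10 lower.

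The largest increases among well-expressed genes were of nearly equal size and followed the receptor share. No well-expressed gene exceeded a log2 fold change of 5.61. Of 210 called genes above 4.5, 68 were receptor genes and 98.6% of the 210 had MAR1 values in the order of the receptor share. The same order was found in 87.7% of 1009 genes above 2 and 68.8% of 2280 above 1. Receptor genes define this order, so their part in these shares was set in advance. Among all well-expressed genes 31% had the order, and among those not called 23.5%. Of the 2662 genes called higher that are not receptor genes, 61.2% had it. Of all 2735 genes called higher, 1701 had that order and 454 the opposite one, and of the 2674 called lower 339 had it and 721 the opposite one. For increases, the naming rule requires a level above the 95th percentile of receptor genes in each MAR1 library (82.0, 157 and 202 CPM before scaling). That percentile rises in the receptor order, so the rule favours genes with this order. The 15 largest increases that the naming rule allows ran from 5.09 to 5.43 and all had the receptor order. They were Zfp457, Zan, Shank1, Myh8, Tmod1, Fgf9, Zfp697, Semp2l1, Grk4, Epha5, Ctcfl, Mdga2, Zfp738, Ccdc141 and Syt11. Several are known from other tissues, Zan as a sperm protein that binds the egg coat, Shank1 and Mdga2 from synapses, Myh8 as a perinatal muscle myosin and Ctcfl as the testis paralogue of CTCF. Ctcfl had 1792, 2928 and 4037 CPM with MAR1 and 95.2, 56.8 and 94.8 CPM with isotype, and Zan had 309, 559 and 834 CPM with MAR1 and 15.5, 8.89 and 16.1 CPM with isotype. Their fold changes were close to that of the receptor genes, and whether they have the same source was not tested.

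The largest decreases reached 0. In 13 well-expressed genes called lower all 3 MAR1 libraries had 0 counts, 4 of them named by the rule. Against a floor of 3 counts per MAR1 library, Rdh16f1, a retinol dehydrogenase family member, was at least 137-fold lower (70.4, 92.3 and 47.5 CPM with isotype), and Srp54b, a copy of the signal recognition particle gene Srp54, at least 94.5-fold lower (50.9, 55.4 and 38.6 CPM). Pcdhgc3, of the gamma protocadherin cluster, was at least 40.7-fold lower (20.6, 26.6 and 15.4 CPM), and the small heat shock protein Hspb6 at least 17.5-fold lower (8.12, 6.57 and 12.1 CPM). These bounds cover counting error only. Other genes were near 0, among them Sacm1l, a phosphoinositide phosphatase, with 0.432, 0.3 and 0.506 CPM with MAR1 and 61.9, 71.7 and 52.2 CPM with isotype (log2 fold change -7.25 ± 0.78, adjusted p = 0.00036). Get3, which delivers tail-anchored proteins to membranes, had 0.216, 0.600 and 0 CPM with MAR1 and 37.8, 35.7 and 43.2 CPM with isotype (adjusted p = 0.00036). Mmp11, a matrix protease, had 0.648, 1.35 and 0.253 CPM with MAR1 and 68.5, 58.6 and 82.7 CPM with isotype (log2 fold change -6.46 ± 1.04, adjusted p = 0.00069). The rule also named Aadacl4fm2, Dynlt1b, Fbp1, Sprr4, Gps2, Ugt1a1, Lims2 and mt-Co1. Srp54b, Dynlt1b, Ugt1a1 and Pcdhgc3 share sequence with other genes, so their counts are uncertain, and the part of this in their decrease was not tested.

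Properties of the transcripts went with the direction of change over 9873 of 10182 well-expressed genes without receptor genes (97% with an annotation). Genes whose longest annotated transcript exceeded 8000 bases had a median log2 fold change of 0.70, with 44.6% higher and 11.1% lower, and those of 1000 to 2000 bases a median of -0.27, with 20.0% higher and 31.1% lower. The trend was not even, since the 376 genes of 600 to 1000 bases had a median of 0.29, with 29.3% higher and 22.6% lower. Genes of at most 40% GC had a median of 0.35 and those above 60% GC a median of -0.56. Across genes, Spearman's rho of the log2 fold change was 0.15 with length and -0.22 with GC content, as a description of genes that share the same 6 libraries.

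The receptor gene share and depth of the MAR1 libraries lay outside the ranges of the other groups. The MAR1 shares were 3.87 to 9.36%, those of isotype libraries 0.269 to 0.438%, of cKO libraries 0.466 to 2.58%, of Il4ra fl/fl libraries 0.0479 to 0.0767% and of untreated libraries 0.0486 to 0.277%. Fcer1a ran from 0.253 to 6.81 CPM with MAR1, 19.9 to 27.2 CPM with isotype, 4.02 to 7.05 CPM in cKO, 6.08 to 18.3 CPM in Il4ra fl/fl and 0 to 1.98 CPM in untreated skin. Cpa3 ran from 15.2 to 31.4 CPM with MAR1, 147 to 188 CPM with isotype, 25.3 to 110 CPM in cKO, 46.4 to 88.9 CPM in Il4ra fl/fl and 44.0 to 74.5 CPM in untreated skin, so MAR1 and cKO overlapped. Cd200r3 was at 258 to 566 CPM with MAR1, 24.6 to 116 CPM in cKO, 10.8 to 18.6 CPM with isotype, 2.19 to 3.21 CPM in Il4ra fl/fl and 1.27 to 8.14 CPM in untreated skin. These levels are set side by side without a test.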

How the data were processed

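RNA of 14 mouse skin libraries was measured, 6 of which (3 MAR1, 3 isotype) are compared. Values as deposited are estimated counts by gene symbol, not scaled for depth and partly with decimals, for 35327 named genes. They were rounded to whole numbers before fitting, and 1 unnamed entry (0.014 to 0.91% of counts) was left out. Per the submitters' processing notes, Salmon 1.2.1, DESeq2 1.44.0 and GRCm39 were used, with no role given. Strand handling and how reads of near-identical or overlapping genes were shared are not given in the sources used here.

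Genes kept by filterByExpr were fitted with edgeR 4.0.16 (R 4.3.3, limma 3.58.1) by the quasi-likelihood test on all 14 libraries with 5 group means, TMM factors from genes well expressed with isotype (at least 10 CPM of the library total) and Benjamini-Hochberg adjustment over 20939 genes at 0.05. CPM are scaled by these factors unless stated. DESeq2 1.42.0, other scalings, filters and left-out libraries were alternatives. On simulated data with 19039 genes tested, the MAR1 comparison recovered 2.99% of changed genes at 2-fold, 71.6% at 4-fold and 93.9% at 16-fold, with 3 false calls. The simulation changed 200 genes that are not receptor genes and gave all others equal levels in both groups. It held no shift in receptor share and few changed genes, so these rates do not carry over to the data. Replicates of a group differed beyond sampling noise (chi-square per degree of freedom at least 17.32). Totals of 5728994 to 10582112 counts (MAR1) and 34312366 to 35580225 counts (isotype) limit the precision, and bounds cover counting error only.

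The naming rule took the IgE receptor and basophil genes, and up to 15 of the largest increases and of the largest decreases among well-expressed genes whose groups did not overlap (for increases, above the 95th percentile of receptor genes in each MAR1 library). It also took up to 4 well-expressed members per list with the smallest p, called or not. Not every gene that the rule took is printed here. Other genes were named after their values were seen. The comparison and the gene lists were chosen with earlier results of these data known. Promoter sequences are from RefSeq (GRCm38.p6) and are not placed on the build of the counts.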

Additional observations from a re-analysis of the deposited data

How the results depend on the processing

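Several settings moved the counts of calls by more than 1.5 times. TMM factors from all genes gave 4723 genes higher and 5547 lower among all tested, and 1304 higher and 4873 lower among the well expressed. Library totals gave 4851 lower among all tested, and 1537 higher and 4307 lower among the well expressed. The log2 receptor share as a covariate left 0 calls in each of the 4 counts. With MAR1 replicate 1 as the only MAR1 library, a choice made after seeing the data, the counts were 1790 higher and 922 lower among all tested, and 1109 higher and 846 lower among the well expressed. At 30 CPM or more with isotype 1397 genes were higher, at 100 CPM or more 290 were higher and 662 lower, and by the mean of all 6 libraries 4333 were higher. Leaving out 1 library gave 4690 to 6945 genes higher and 2204 to 2648 lower among all tested, 2081 to 2591 higher and 2040 to 2399 lower among the well expressed, and a receptor share difference of 5.34 to 8.08 percentage points. The cause of these shifts was not tested. RLE factors, DESeq2, both filters, equal depth and the 6 libraries alone kept each of the 4 counts within 1.5 times. Subtracting the median receptor gene count changed nothing, since that median was 0.

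The replicate block gave 6395 genes higher and 2845 lower among all tested, and 2597 higher and 2576 lower among the well expressed. Deviations of libraries with the same number correlated at 0.05, -0.02 and 0.08, so the numbers do not pair the mice.

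With the receptor share as a covariate, whose values do not overlap between the groups, 29 of the 223 genes followed through the alternatives were called in the main result and changed sign, none of them called there. Their log2 fold changes were Mcpt8 -0.06, Hdc 0.48, Zfp457 -0.78, Myh8 -0.67, Fgf9 -0.22, Zfp697 -0.54, Semp2l1 -0.47, Epha5 -0.68, Ctcfl -0.15, Mdga2 -0.94, Tpsb2 0.15, Cxcr2 -0.88, Rxra 0.25, Pvalb -0.57, Snhg11 -0.84, Cd163 0.34, Krt5 0.01, Krt14 0.25, Krt1 0.64, Krt6a 0.74, Krt6b 3.13, Tgm3 0.23, Cd79a -0.84, Ms4a1 -1.71, Stat2 -0.16, Eef1a1 0.05, Defb4 1.58, Uty -1.70 and Selp -0.08.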
